A study of Homo sapiens with 6 samples.

Results

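The small-RNA silencing machinery was examined through 10 genes of microRNA processing and of the RNA-induced silencing complex (RISC): DROSHA, DGCR8, XPO5, DICER1, TARBP2, AGO1, AGO2, AGO3, AGO4 and TNRC6A. They were chosen by symbol from a list of the pathway, with earlier results of these data known. All 10 were found among the 48162 genes of the count table and passed the filter on low counts. RNA was sequenced from the cervical cancer cell line SiHa in 3 samples that received si-CNN3#1 and 3 that received si-NC. si-CNN3#1 is an siRNA, a short synthetic duplex that lowers the mRNA it matches, here that of the actin-binding protein gene CNN3, and si-NC is its control. Cells of both groups were grown in DMEM with fetal bovine serum, the medium was changed after transfection, at an hour on which the labels and the methods of the study differ, and RNA was harvested at 48 h. Every sample therefore carried a synthetic small RNA that uses this machinery, and no untransfected sample was analysed here. The question was whether the transcripts of the machinery differed between cells given the 2 siRNAs.

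A microRNA is cut from a long nuclear transcript by the Microprocessor, which is made of the RNase DROSHA and its RNA-binding partner DGCR8. The hairpin is carried to the cytoplasm by exportin 5 (XPO5) and is cut again by DICER1, which works with the double-stranded RNA-binding protein TARBP2. One strand is then held by an Argonaute protein, which recruits TNRC6 proteins and through them the enzymes that shorten and decap the target mRNA, whereas an siRNA enters after the steps in the nucleus.

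The 4 strands of the siRNAs are shown first because these were the small RNAs given to the cells. The labels gave the sense strands, and each guide strand was written as the reverse complement of the 19 bases before the TT overhang. Capitals mark bases 2 to 8, the seed, by which a guide held in an Argonaute pairs with its targets.
si-CNN3#1 guide: uUUGUUGGuucccaucugc
si-CNN3#1 sense: gCAGAUGGgaaccaacaaa
si-NC guide: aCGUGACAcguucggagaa
si-NC sense: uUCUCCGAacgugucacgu

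The letters opposite each seed were searched on the coding strand of 1 principal transcript per gene (GENCODE 29, GRCh38). The 7 letters opposite the si-CNN3#1 guide seed, CCAACAA, occurred in 5 of the 10 genes and in 23.7% of the 12697 tested genes with such a transcript. Within 3′ UTRs they occurred in 2 of the 10 genes, AGO1 and AGO4, and in 7.94% of 12561 genes. The letters opposite the si-NC guide seed, TGTCACG, occurred in AGO3 and DROSHA and in 6.88% of all genes. The letters opposite the si-CNN3#1 sense seed, CCATCTG, occurred in 8 of the 10 genes against 29.6% of all genes, and those of the si-NC sense seed, TCGGAGA, occurred in AGO1 alone among the 10 genes against 11.2% of all genes. Long transcripts hold more such words, and those of the 10 genes ran from 1867 to 19687 bases, so the shares are not matched for length. The longest run complementary to any of the 4 strands was 10 bases in the 10 genes, in TNRC6A, and 19 bases in CNN3. The sites below are a selection of the guide matches, with the intended target for comparison, and capitals mark the 7 matching letters. The si-CNN3#1 guide matches in the 3′ UTRs of AGO1 and AGO4, that in DICER1 and another in the coding sequence of CNN3 are not shown.
CNN3 coding sequence, si-CNN3#1 guide: gatgggaaCCAACAAatgtgcca
DROSHA coding sequence, si-CNN3#1 guide: tcctatgaCCAACAAtgctggca
DROSHA coding sequence, si-NC guide: aaatatcaTGTCACGccttggcc
TNRC6A coding sequence, si-CNN3#1 guide: agctacagCCAACAAtcagcagc
AGO3 3′ UTR, si-NC guide: agccaaacTGTCACGaaatgttc

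In GRCh38 the 7 capitals lie at chr1:94899504-94899510 on the minus strand for CNN3, at chr5:31495341-31495347 and chr5:31448577-31448583 on the minus strand for DROSHA, at chr16:24777038-24777044 on the plus strand for TNRC6A and at chr1:36072312-36072318 on the plus strand for AGO3. AGO2 held the letters of neither guide seed. These matches are a description of the letters, and binding was not measured.

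The target itself, CNN3, was covered by 490 to 574 counts per si-CNN3#1 sample and by 1134 to 1288 per si-NC sample (log2 fold change -0.97, SE 0.055). Counts on genes added up to between 18147028 and 19026341 per si-CNN3#1 sample and between 20287139 and 24976517 per si-NC sample. Every si-NC sample was thus deeper than every si-CNN3#1 sample, and depth and treatment cannot be told apart. The 10 genes together held 0.0924% to 0.0957% of the counts of a sample. Of the epithelial markers, KRT8 had 451 to 544 FPKM, KRT7 787 to 862, KRT18 102 to 118, CDH1 19.4 to 21.8 and KRT19 6.11 to 7.34, where FPKM is the read count per transcript length and library. CDKN2A, a cell cycle inhibitor known to be high in cells with human papillomavirus, had 337 to 364 FPKM. The leukocyte, endothelial and fibroblast markers PTPRC, CD68, CDH5, VWF and PDGFRB stayed at or below 0.39 FPKM, and CD3E, COL1A1, COL3A1 and DCN were between 0.773 and 4.11 FPKM.

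All 10 genes were transcribed in SiHa cells, and their levels spanned a wide range. DROSHA had the highest FPKM, between 163 and 176 over the 6 samples. AGO2 followed with 79.4 to 90.2 FPKM, XPO5 with 64.0 to 68.5 FPKM and TNRC6A with 54.1 to 59.1 FPKM. DGCR8 (27.4 to 28.3 FPKM) and DICER1 (25.7 to 27.6 FPKM) overlapped. TARBP2 had 20.5 to 23.0 FPKM. AGO1 (14.0 to 14.7 FPKM) and AGO3 (10.9 to 14.2 FPKM) overlapped, and AGO4 was lowest with 7.60 to 9.74 FPKM.

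The order depended on the gene length that was used. For AGO2 the length behind the FPKM was 1288 bases, whereas its principal transcript has 14581 bases. The length behind the FPKM equalled the mean length of all annotated transcripts, within 1 base, for 6 of the 10 genes. It did so for 59.5% of 29078 genes compared, and there a gene with many short annotated fragments was divided by a small length. AGO2 was not among the 6, since its annotated transcripts have a mean length of 2389 bases. How its length arose was not tested. With normalized counts (CPM, counts scaled to a common library total) per kilobase of the principal transcript, a scale chosen after seeing the data, DROSHA still stood first with 44.8 to 49.2. DGCR8, XPO5 and TNRC6A followed between 15.4 and 16.8 with overlapping ranges, AGO2 moved from the second place to the eighth with 7.04 to 7.98, and AGO3 took the last place with 1.04 to 1.33. Only 4 of the 10 genes kept their rank.

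**Figure D1:**
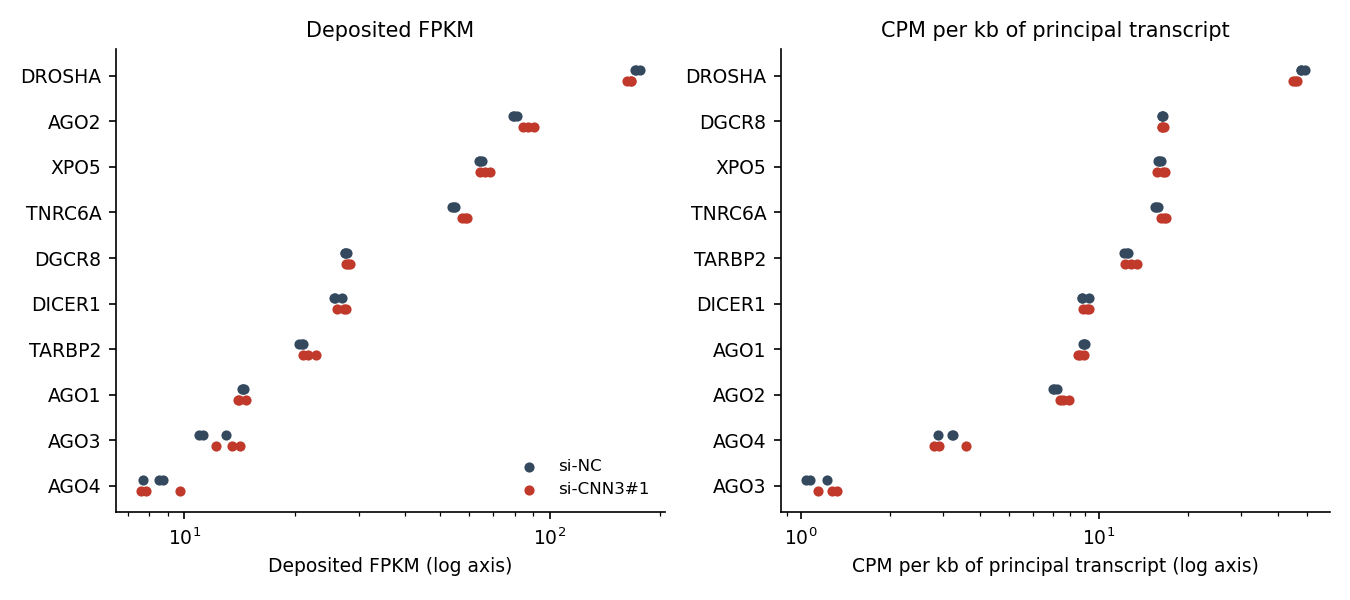
Levels of the 10 genes in each of the 6 samples (points; dark blue si-NC, red si-CNN3#1), on log axes. The left panel gives deposited FPKM and the right panel gives normalized CPM per kilobase of the principal transcript; DROSHA leads both, and AGO2 is second on the left and eighth on the right.

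The same holds for the make-up of the Argonaute family. AGO2, the Argonaute known for cutting targets, took 68.7% to 71.8% of the summed Argonaute FPKM. Per kilobase of principal transcript it took 37.0% ± 1.45 in the si-CNN3#1 samples and 35.2% ± 0.543 in the si-NC samples (SD, n = 3 each). On that scale AGO1 took the largest share in every sample, 42.0% ± 0.759 with si-CNN3#1 and 44.0% ± 0.771 with si-NC (SD, n = 3). AGO4 took 14.0% to 16.7% and AGO3 5.21% to 6.17% on the same scale. Which Argonaute transcript was most abundant therefore rests on the length chosen, while comparisons of 1 gene between samples do not use length.

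Between the treatments, 2 of the 10 genes passed the threshold of an adjusted p of 0.05: AGO2 was higher and DROSHA was lower with si-CNN3#1. Both changes were small. AGO2 was 7.67% higher and DROSHA fell by 5.63%, and neither call was held under all alternatives. Of all 15860 tested genes 13.3% passed the same threshold, with 6.17% higher and 7.14% lower, so 2 of 10 is close to the rate of genes in general. DESeq2, a second count test, called 0 of the 10 genes, while it called 8.44% of the genes it tested. Of the 10 genes, 3 had an unadjusted p under 0.05 in DESeq2 and 4 in edgeR. In edgeR 3978 of all 15860 tested genes had such a p. The median log2 fold change of the 10 genes was 0.028, against 0.0023 over all tested genes. The groups did not overlap in 3 of the 10 genes, against 28.2% of all tested genes, and the si-CNN3#1 samples lay above si-NC in 2 (13.9% of all) and below in 1 (14.3% of all). In these bulk samples, less RNA per cell and fewer cells of a kind cannot be told apart.

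**Figure D2:**
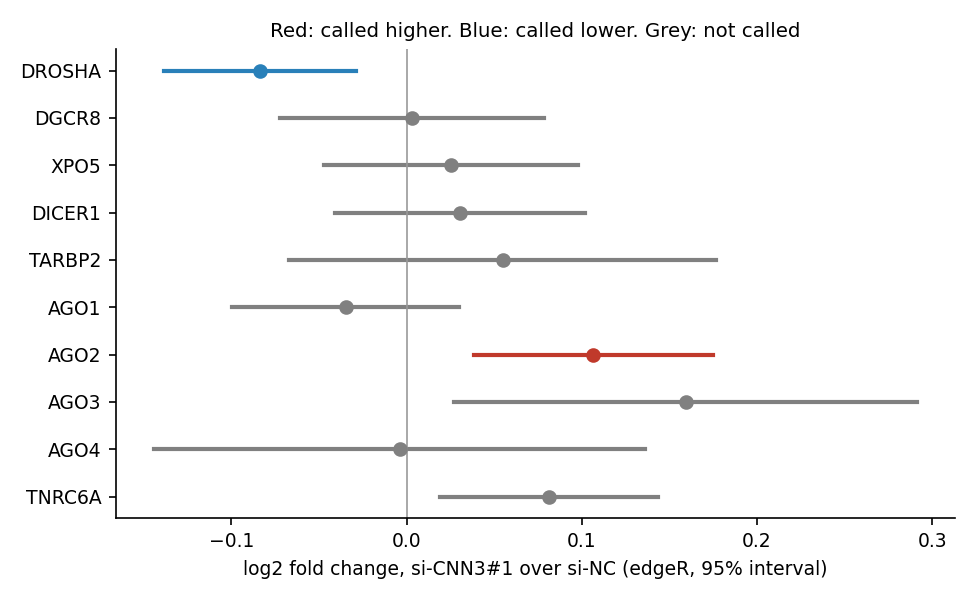
Log2 fold change of each of the 10 genes, si-CNN3#1 over si-NC, with its 95% interval (edgeR, n = 3 per group). AGO2 lies above 0 and DROSHA below; AGO3 and TNRC6A have intervals above 0 but adjusted p of 0.104 and 0.0724.

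In the Microprocessor, DROSHA (ENSG00000113360, chr5:31400497-31532196, minus strand), the nuclear RNase III enzyme, had 245, 243 and 238 normalized CPM with si-CNN3#1 and 254, 254 and 261 CPM with si-NC. The si-CNN3#1 samples were all below the lowest si-NC sample. The log2 fold change was -0.084 (SE 0.027, 95% interval -0.14 to -0.029, Benjamini-Hochberg adjusted p = 0.0307 in the quasi-likelihood test of edgeR). The gene had 4337 to 6313 counts per sample, and none of its 50-base words was shared with another gene. The call was lost in 10 of 16 alternatives, where the fold change kept its sign and the adjusted p reached 0.203. With si-CNN3#1 replicate 2 left out the adjusted p in edgeR was 0.0542, with si-CNN3#1 replicate 3 left out it was 0.104, and with si-NC replicates 1, 2 and 3 left out in turn it was 0.0576, 0.0501 and 0.152.

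DGCR8 (ENSG00000128191, chr22:20080232-20111877, plus strand) had 73.7, 73.5 and 74.7 CPM with si-CNN3#1 and 73.6, 74.2 and 73.5 CPM with si-NC. The samples of both groups were interleaved. The log2 fold change was 0.0032 (95% interval -0.072 to 0.078, adjusted p = 0.975 in edgeR). The exons of DGCR8 overlap an antisense gene, AC006547.2, over 526 bases, which had 0 counts in every sample, and TRMT2A over 12 bases.

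Of the later processing steps, XPO5 (ENSG00000124571, chr6:43522330-43576075, minus strand), which exports hairpin precursors, had 84.2 to 89.7 CPM with si-CNN3#1 and 84.8 to 86.9 CPM with si-NC. DICER1 (ENSG00000100697, chr14:95086228-95158010, minus strand) had 91.8 to 96.1 CPM and 90.5 to 95.5 CPM, respectively. TARBP2 (ENSG00000139546, chr12:53500921-53506431, plus strand) had 23.0 to 25.1 CPM and 22.6 to 23.4 CPM, respectively. The groups overlapped in all 3 genes. Their log2 fold changes were 0.025 for XPO5 (95% interval -0.047 to 0.098), 0.030 for DICER1 (-0.041 to 0.10) and 0.055 for TARBP2 (-0.067 to 0.18), with adjusted p of 0.732, 0.663 and 0.640 (edgeR). The kit does not mark strand, so reads from the 348 bases that XPO5 shares with POLR1C on the other strand cannot be assigned, and POLR1C had 481 to 694 counts per sample.

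Among the Argonautes, AGO2 (ENSG00000123908, chr8:140520156-140635619, minus strand) had 116, 111 and 108 CPM with si-CNN3#1 and 106, 103 and 103 CPM with si-NC. The si-CNN3#1 samples were all above the highest si-NC sample, and si-CNN3#1 replicate 1 was the highest of all. The log2 fold change was 0.11 (SE 0.034, 95% interval 0.038 to 0.18, Benjamini-Hochberg adjusted p = 0.0272 in the quasi-likelihood test of edgeR). No 50-base word of AGO2 was shared with another gene. The call was lost in 7 of 16 alternatives, where the adjusted p reached 0.206 and the log2 fold change kept its sign. With si-CNN3#1 replicate 1 left out, the log2 fold change was 0.077 and the adjusted p 0.206 in edgeR. The adjusted p was 0.0505, 0.113 and 0.0906 in edgeR when si-CNN3#1 replicate 2, si-NC replicate 2 or si-NC replicate 3 was left out. Over the 6 samples and 9795 genes with a mean of at least 10 CPM, the patterns most like that of AGO2 were those of MYH9, LSM12 and B4GALT5, with root mean square differences of 0.0072, 0.011 and 0.014 on the centred log2 CPM scale. AGO2 was used for this as the called gene with the largest fold change. MYH9, LSM12 and B4GALT5 passed the threshold too, with log2 fold changes of 0.115, 0.111 and 0.111. The likeness thus includes the difference between the groups, and shared regulation was not tested.

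The other Argonaute genes lie side by side on the plus strand of chromosome 1, in the order AGO4 (chr1:35808172-35857890), AGO1 (chr1:35869808-35930528) and AGO3 (chr1:35930718-36072500). A stretch of 11917 bases separates AGO4 from AGO1, and 189 bases separate AGO1 from AGO3. AGO1 (ENSG00000092847) had 118, 123 and 117 CPM with si-CNN3#1 and 122, 121 and 123 CPM with si-NC, with a log2 fold change of -0.035 (95% interval -0.099 to 0.030, adjusted p = 0.557 in edgeR). One si-CNN3#1 sample lay among the si-NC samples and the others lay below. AGO3 (ENSG00000126070) had 25.0, 26.1 and 22.5 CPM with si-CNN3#1 and 21.1, 24.1 and 20.5 CPM with si-NC. Its log2 fold change was 0.16 (SE 0.066, 95% interval 0.027 to 0.29), and its adjusted p was 0.104 in edgeR. The overlap lay between si-NC replicate 2 and si-CNN3#1 replicate 3, and AGO3 passed the threshold when either was left out, with an adjusted p of 0.0182 and 0.0400 in edgeR. Without si-CNN3#1 replicate 1 or 2 or si-NC replicate 1 or 3 the adjusted p of AGO3 was 0.243, 0.393, 0.276 and 0.390 in edgeR. In DESeq2 with all samples it was 0.380. AGO4 (ENSG00000134698) had 20.7, 25.5 and 20.0 CPM with si-CNN3#1 and 22.8, 23.1 and 20.5 CPM with si-NC, and the sign of its log2 fold change of -0.0040 (95% interval -0.14 to 0.14) turned under 9 of 16 alternatives. Although 3 of these genes are neighbours, their fold changes ranged from -0.035 to 0.16 on the log2 scale, and none passed the threshold.

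TNRC6A (ENSG00000090905, chr16:24610209-24827632, plus strand), the scaffold that links Argonautes to the deadenylases, had 142, 139 and 137 CPM with si-CNN3#1 and 133, 130 and 132 CPM with si-NC. The groups did not overlap. Its log2 fold change was 0.082 (SE 0.031, 95% interval 0.019 to 0.14), and its adjusted p of 0.0724 in edgeR missed the threshold. It passed when samples were scaled by total counts alone, with a log2 fold change of 0.099 and an adjusted p of 0.0224 in edgeR.

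**Figure D3:**
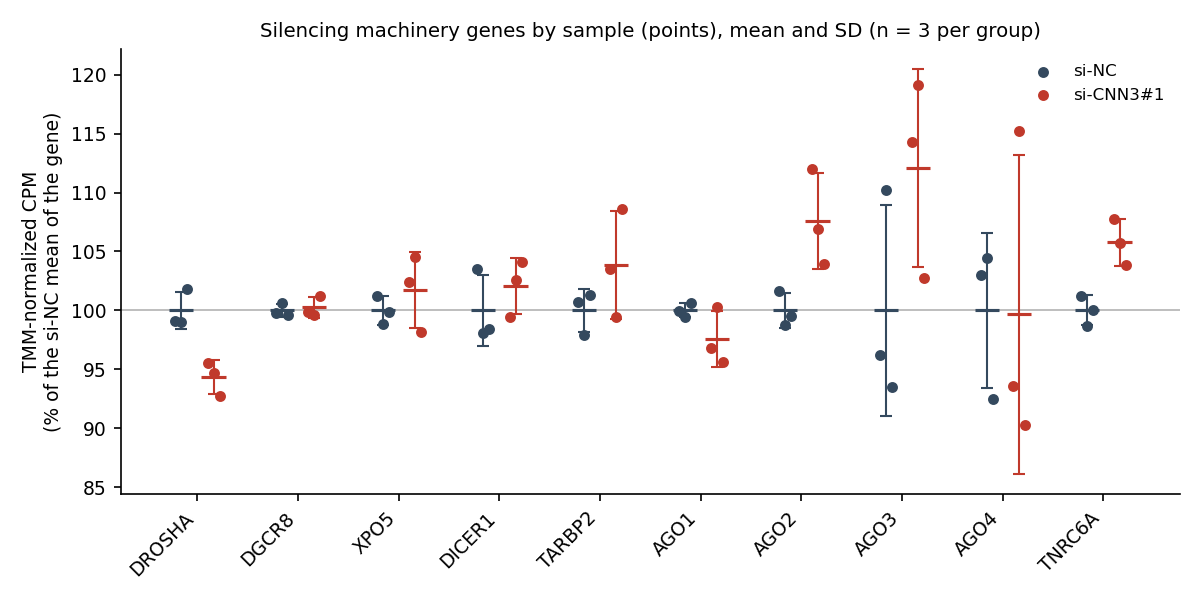
Normalized CPM of the 10 genes in each sample (points), as a percentage of the si-NC mean of the gene, with mean and SD (n = 3 per group; the axis does not start at 0). The groups are apart for DROSHA, AGO2 and TNRC6A, and AGO3 and AGO4 have the widest spread.

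The partners of the machinery were taken from a list of 82 genes, of which 75 were tested. DCP1A could not be matched to the table by name. Of the 75 genes, 14 passed the threshold (18.7%, against 13.3% of all genes), 7 higher and 7 lower, and the median log2 fold change was 0.0058. Of the 12 cofactors of nuclear processing, only ERH, a small protein bound to the Microprocessor, passed. It had 170 ± 1.87 CPM in the si-CNN3#1 samples and 156 ± 4.38 CPM in the controls (SD, n = 3), with a log2 fold change of 0.13. Of its 50-base words 23.9% are shared with other genes, mostly with SLC39A9, which leaves its count less certain. The log2 fold change of SLC39A9 was -0.0048 with overlapping groups. DDX5 and DDX17, the helicases of the Microprocessor, had log2 fold changes of 0.016 and -0.041, and their groups overlapped. Of 3 transport factors, IPO8, an importin linked to Argonautes, fell with a log2 fold change of -0.15 (SE 0.038). Its call was lost in 4 of 16 alternatives, with an adjusted p of 0.0541 in edgeR when si-CNN3#1 replicate 1 was left out and of up to 0.221 in the limma fits.

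Among 11 tested partners of DICER1 and modifiers of precursors, CLP1 and ADAR passed, both lower (18.2%, against 7.14% of all tested genes lower and 13.3% in either direction). The list had no common direction, with a median log2 fold change of 0.0058 and 6 of the 11 genes above 0. CLP1, an RNA kinase that phosphorylates siRNA ends, had 12.7, 13.1 and 15.3 CPM with si-CNN3#1 and 17.4, 16.4 and 17.5 CPM with si-NC (log2 fold change -0.32, SE 0.076). The groups did not overlap, and CLP1 shares 7.63% of its 50-base words with its neighbour YPEL4, whose log2 fold change was 0.055. ADAR, which edits double-stranded RNA, had a log2 fold change of -0.096 (SE 0.026), and its call was lost in the 3 limma fits. LIN28A and LIN28B, which block let-7 maturation, had at most 3 and 5 counts per sample and were not tested. The germline Argonautes PIWIL1, PIWIL2, PIWIL3 and PIWIL4 had at most 12 counts in any sample and were not tested either.

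In the list of 11 RISC loading factors, mainly HSP90 and its co-chaperones, 3 passed and all 3 were higher (27.3%, against 6.17% of all tested genes higher and 13.3% in either direction). These were FKBP4, an immunophilin that binds HSP90 (331 ± 8.76 against 295 ± 11.4 CPM), STIP1, which links HSP70 to HSP90 (466 ± 13.9 against 427 ± 12.2 CPM), and AHSA1, which stimulates HSP90 (176 ± 4.07 against 165 ± 1.38 CPM; SD, n = 3, si-CNN3#1 first). Their log2 fold changes were 0.17, 0.13 and 0.095. FKBP4 shares 8.08% of its 50-base words with other genes, which leaves its count less certain. The median of the 11 genes was 0.054 on the log2 scale, and 9 of the 11 had a log2 fold change above 0, as did 8042 of all 15860 tested genes. The chaperones themselves did not pass, with log2 fold changes of -0.017 for HSP90AA1, 0.048 for HSP90AB1 and -0.0069 for HSPA8. The call of AHSA1 was lost in DESeq2 (adjusted p of 0.0752), and without si-CNN3#1 replicate 1, si-NC replicate 2 or si-NC replicate 3, with adjusted p of 0.122, 0.0902 and 0.0740 in edgeR.

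Of 34 effectors downstream of RISC, 3 rose (AJUBA, TNRC6B and PAN2) and 3 fell (CNOT8, PABPC1 and DDX6), which is 17.6% of the list against 13.3% of all tested genes. AJUBA is a LIM-domain protein found with the decapping machinery. It is one of the genes that the study itself selected on these samples and measured again by RT-PCR, whose outcome is not reported here. By RNA sequencing AJUBA had 118, 125 and 120 CPM with si-CNN3#1 and 89.0, 91.8 and 91.7 CPM with si-NC. The groups lay far apart, and the log2 fold change was 0.42 (SE 0.034), the largest of the partner list. Its relative LIMD1, in the same family, had a log2 fold change of -0.11 and an adjusted p of 0.0564 in edgeR. TNRC6B, the paralogue of TNRC6A, rose with a log2 fold change of 0.11 (SE 0.033; 131 ± 5.47 against 122 ± 1.77 CPM, SD, n = 3), whereas the log2 fold change of TNRC6C was -0.047 with overlapping groups. TNRC6B lost its call in 6 of 16 alternatives. The adjusted p was 0.0996 in DESeq2, 0.125, 0.124 and 0.199 in the limma fits, and 0.207 and 0.108 in edgeR when si-CNN3#1 replicate 1 or si-NC replicate 3 was left out.

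The effectors that fell were the deadenylase CNOT8 (log2 fold change -0.11, SE 0.033), the poly(A)-binding protein PABPC1 (-0.11, SE 0.024) and the helicase DDX6 (-0.091, SE 0.028). PABPC1 shares 7.45% of its 50-base words with other genes, 4.09% with PABPC3, which leaves its count less certain. CNOT1, the scaffold of the same deadenylase complex as CNOT8, had a log2 fold change of 0.0052 and overlapping groups. PAN2, a deadenylase subunit named here after its values were seen, passed with a log2 fold change of 0.14 although its groups overlapped. CNOT8 lost its call in 8 of 16 alternatives, DESeq2 (adjusted p of 0.0957), total counts (0.0587) and the 3 limma fits (up to 0.159) among them, and without si-CNN3#1 replicate 3, si-NC replicate 1 or si-NC replicate 2 (0.131, 0.0745 and 0.0626 in edgeR). DDX6 lost its call in 7 of 16, with total counts (0.0607), in the 3 limma fits (up to 0.317) and without si-CNN3#1 replicate 1, si-NC replicate 2 or si-NC replicate 3 (0.0519, 0.180 and 0.0596 in edgeR). PAN2 lost its call in 9 of 16, in DESeq2 (adjusted p of 0.202), without a filter (0.0627), in the 3 limma fits (up to 0.233) and without si-CNN3#1 replicate 2 or 3 or si-NC replicate 1 or 2 (0.0709, 0.291, 0.104 and 0.177 in edgeR). Of 4 genes of small RNA turnover, only ERI1, an exonuclease that degrades siRNA, passed (25%, against 7.14% of all tested genes lower and 13.3% in either direction). It fell from 42.9 ± 1.63 to 36.8 ± 0.474 CPM (SD, n = 3), with a log2 fold change of -0.22. The call of ERI1 was lost in 1 of 16 alternatives, limma without a filter (adjusted p of 0.0529).

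**Figure D4:**
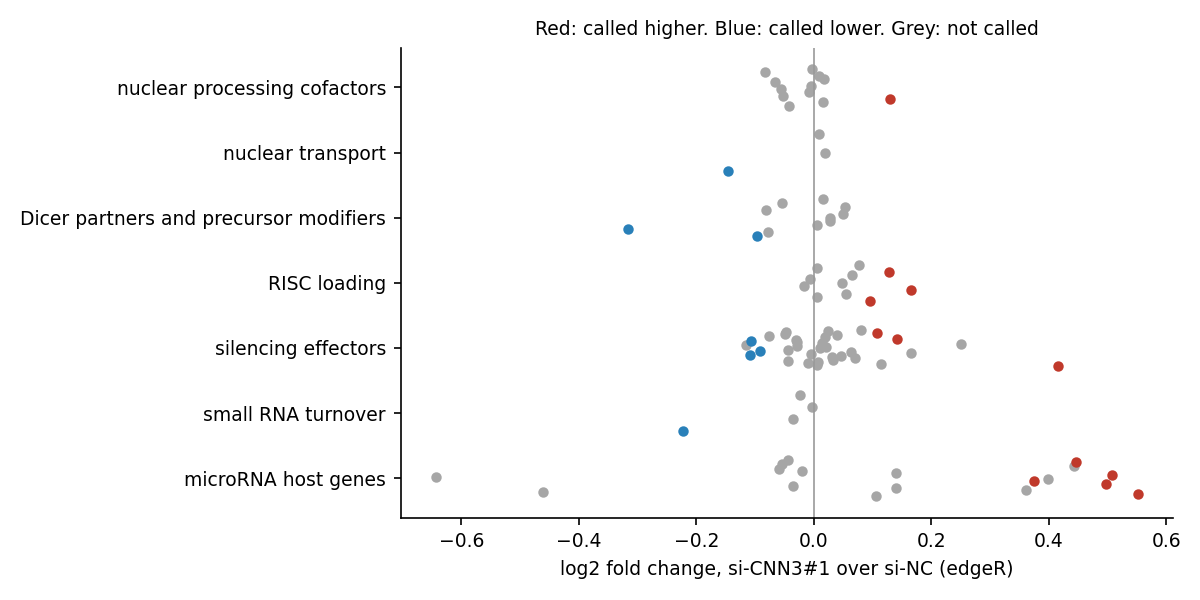
Log2 fold change of each tested gene (points), si-CNN3#1 over si-NC, by list of partners and for the microRNA host genes. Most partners lie within 0.2 of 0, AJUBA stands at 0.42, and the 5 host genes past the threshold lie between 0.38 and 0.55.

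Host genes of microRNAs are the long transcripts from which DROSHA and DGCR8 release hairpins. The libraries measured such transcripts and not mature microRNAs. Of 24 listed host genes 18 were tested, and 5 passed the threshold, all higher with si-CNN3#1. They were 27.8% of those tested, against 6.17% of all tested genes higher and 13.3% in either direction. The median log2 fold change of the 18 genes was 0.14, with 11 above 0 and 7 below. These transcripts are low, and 3 of the 5 genes had at most 154 counts in any sample.

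A selection of the mature microRNAs that lie within these 5 genes, 1 arm of each hairpin, is shown because some share a seed, which is in capitals (RefSeq, GRCh38.p14). The other arms and miR-10526-3p of MIR100HG are not shown. MIR100HG and MIR99AHG each hold a let-7, a miR-99 family and a miR-125 microRNA with the same 3 seeds.
MIR100HG, let-7a-5p: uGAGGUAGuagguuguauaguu
MIR99AHG, let-7c-5p: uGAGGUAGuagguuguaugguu
MIR100HG, miR-100-5p: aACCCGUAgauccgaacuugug
MIR99AHG, miR-99a-5p: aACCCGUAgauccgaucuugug
MIR100HG and MIR99AHG, miR-125b-5p: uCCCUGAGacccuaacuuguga
MIR222HG, miR-221-3p: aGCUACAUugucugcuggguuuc
MIR222HG, miR-222-3p: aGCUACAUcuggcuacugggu
MIR22HG, miR-22-3p: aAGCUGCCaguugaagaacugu
MIR4435-2HG, miR-4435: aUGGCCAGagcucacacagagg

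MIR100HG, on the minus strand of chromosome 11 with let-7a at chr11:122146568-122146589, had 8.11, 8.02 and 7.72 CPM with si-CNN3#1 and 4.83, 5.38 and 6.03 CPM with si-NC. MIR99AHG, on the plus strand of chromosome 21 with let-7c at chr21:16539838-16539859, had 4.99, 5.21 and 5.42 CPM and 3.49, 3.74 and 4.22 CPM, respectively. In both genes all si-CNN3#1 samples lay above all si-NC samples. The log2 fold changes were 0.55 (SE 0.11) and 0.45 (SE 0.13). The call of MIR99AHG was lost in DESeq2 (adjusted p of 0.162), in limma without a filter (0.0554), and without si-CNN3#1 replicate 3, si-NC replicate 1 or si-NC replicate 2 (0.0701, 0.0828 and 0.0629 in edgeR). MIRLET7BHG, which holds let-7b-5p and a further copy of let-7a-5p, had a log2 fold change of -0.044 with overlapping groups.

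MIR222HG, on the minus strand of chromosome X with miR-221 at chrX:45746180-45746202, had 4.83, 4.22 and 3.72 CPM with si-CNN3#1 and 2.44, 3.62 and 2.87 CPM with si-NC. The groups were apart by a narrow margin, and the log2 fold change of 0.50 (SE 0.16) lost its call in 8 of 16 alternatives. The adjusted p was 0.183 in DESeq2, up to 0.274 in the 3 limma fits, and 0.152, 0.0518, 0.147 and 0.0850 in edgeR without si-CNN3#1 replicate 1 or 2 or si-NC replicate 1 or 3. MIR22HG, on the minus strand of chromosome 17 with miR-22-3p at chr17:1713914-1713935, had 13.0, 11.4 and 14.2 CPM with si-CNN3#1 and 9.92, 10.3 and 9.41 CPM with si-NC. Its groups were also apart, with a log2 fold change of 0.38 (SE 0.089), and it was named after its values were seen.

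MIR4435-2HG, on the minus strand of chromosome 2 with miR-4435 at chr2:111321061-111321082, had 24.1, 24.6 and 26.2 CPM with si-CNN3#1 and 17.0, 17.0 and 18.7 CPM with si-NC, with a log2 fold change of 0.51 (SE 0.065). The groups were well apart. Of its 50-base words 21.6% are shared with the near copy CYTOR, which was also higher, with a log2 fold change of 0.46, so reads of the 2 genes may have been divided by the counting and the value of each is uncertain. Of the other tested hosts, MIR17HG was nearest to the threshold with groups apart, a log2 fold change of 0.36 and an adjusted p of 0.0530 in edgeR. The lowest fold changes, -0.64 for MIR31HG and -0.46 for MIR155HG on the log2 scale, rested on 9 to 32 counts per sample and did not pass.

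**Figure D5:**
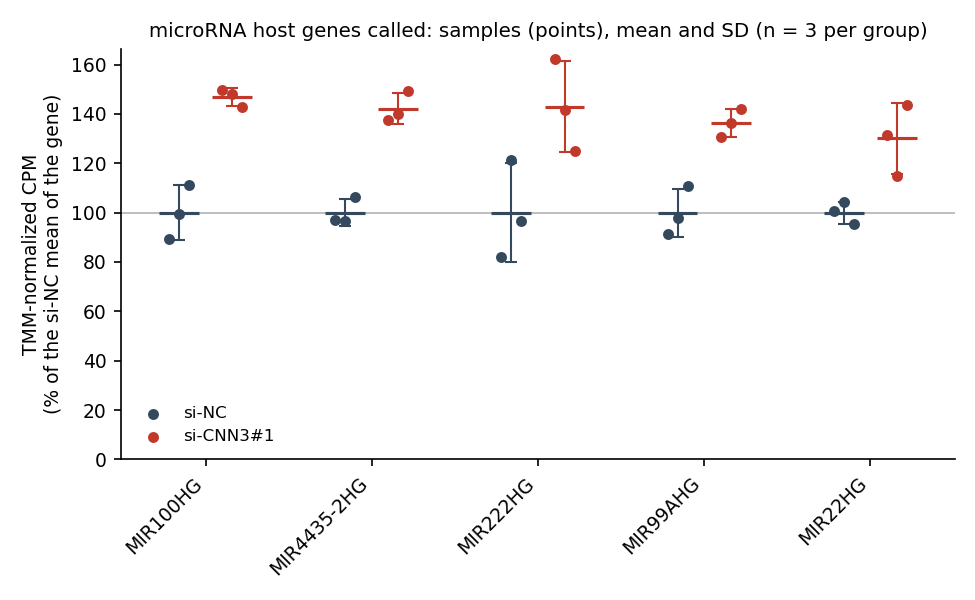
Normalized CPM of the 5 microRNA host genes past the threshold in each sample (points), as a percentage of the si-NC mean of the gene, with mean and SD (n = 3 per group). In each gene the 3 si-CNN3#1 samples lie above the 3 si-NC samples, with the smallest distance in MIR222HG.

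Some of the 10 genes are hosts themselves. DGCR8 holds miR-3618 (chr22:20085797-20085818) and miR-1306 (chr22:20086072-20086093) on its own strand, and both hairpins lie in its exons. DICER1 holds miR-3173 (chr14:95137961-95137982) outside its exons. They are shown with the seed in capitals because the transcripts that carry them were measured here, at levels that the test did not separate between the groups.
DGCR8, miR-1306-5p: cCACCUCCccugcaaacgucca
DGCR8, miR-3618: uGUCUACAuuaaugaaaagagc
DICER1, miR-3173-5p: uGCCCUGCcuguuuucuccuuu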

How the data were processed

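RNA sequencing was analysed from 3 si-CNN3#1 and 3 si-NC samples of SiHa cells, grouped by the sample labels. Per the submitters' processing notes the tools were TopHat2 2.0.9, Bowtie2 2.0.6, HTSeq and DESeq 1.10.1. The genome build and annotation are not given in the sources used here. The authors deposited raw read counts per Ensembl gene, and the authors also deposited FPKM values of the same genes, which equal the counts divided by a gene length and the sample total. The study prepared 3 independent assays per group.

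Genes were named from GENCODE release 29, which held 45342 of 48162 identifiers. Counts were scaled by TMM after filterByExpr and tested by glmQLFTest (edgeR 4.0.16, R 4.3.3) with treatment alone in the model. P values were adjusted by Benjamini-Hochberg over the 15860 tested genes, and 0.05 was the threshold. Standard errors came from the log2 fold change and the F statistic. The 10 genes and all lists were chosen with earlier results of these data known. From each list the genes named were those past the threshold with groups apart, up to 4 per list by fold change and 6 for the effectors, and other names are marked or given as comparisons chosen after their values were seen. Genes most like AGO2 were found by the root mean square difference of centred log2 CPM (prior count 2). Mature microRNAs came from RefSeq.

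Alternatives were scaling by RLE, by the upper quartile or by total counts, DESeq2 1.42.0, no filter or a floor of 10 counts per sample, a block for the replicate number, leaving out each replicate, and limma 3.58.1 on log2 FPKM with a pseudocount of 1 or 0.1, with genes kept at a mean FPKM of 1 or all kept. The pseudocount understates the change of low genes. Each test was tested on simulated data with known changes. The changed genes were drawn from those above a floor on mean counts and were pooled over levels. Among them, most changes about as small as those of AGO2 and DROSHA were missed by every test. The share missed at the counts of AGO2 and DROSHA was not worked out.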

Additional observations from a re-analysis of the deposited data

How the results depend on the processing

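Of 16 alternatives, RLE, the upper quartile and the floor of 10 counts called the same 2 of the 10 genes, AGO2 and DROSHA. Total counts called AGO2 and TNRC6A, and leaving out si-CNN3#1 replicate 3 called AGO2 and AGO3. DESeq2 gave 0 (3 at an unadjusted p under 0.05), no filter 1, the limma fits on filtered values 1 each, limma without a filter 0, and leaving out a replicate 0 to 2. The log2 fold change of AGO2 missed the threshold at 0.11 in DESeq2, 0.10 without a filter and 0.12 in limma without a filter, and ran from 0.077 to 0.13 with a replicate left out. That of DROSHA missed it at -0.066 with total counts, -0.084 in DESeq2 and -0.066 in each of the 3 limma fits, and ran from -0.093 to -0.071. AGO3 ran from 0.11 to 0.24 with a replicate left out, and TNRC6A reached 0.099 with total counts. The sign of AGO4 turned to 0.0016 with the upper quartile, 0.013 with total counts and 0.0063 in each limma fit, with a range of -0.12 to 0.061 when a replicate was left out, and that of DGCR8 to -0.0027 without a filter, with a range of -0.0046 to 0.0078. The cause was not tested. AGO1, DICER1, TARBP2 and XPO5 missed the threshold in all 16 with the sign kept.

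The partner list gave 10 calls in DESeq2 (4 higher and 6 lower, without AHSA1, TNRC6B, PAN2 and CNOT8), 4 in limma without a filter and 10 to 16 with a replicate left out, and the host genes gave 3 in DESeq2, 2 in limma without a filter and 3 to 4 with a replicate left out. ERH, FKBP4, AJUBA, MIR100HG and MIR4435-2HG passed in all 16, as did CNN3. Over all genes DESeq2 called 1074, and the limma fits called 1363, 1353 and 585, against 2111. Total counts called 1294 genes higher and 863 lower, against 978 and 1133. By level, 3 of the 10 genes kept their rank per kilobase of joined exons and 4 per kilobase of principal transcript.

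With the replicate number as a block, 4 of the 10 genes (AGO2, AGO3 at 0.16, DROSHA and TNRC6A at 0.081) and 22 partners passed, and 2727 of all genes. Same-numbered samples correlated at 0.0105, 0.0329 and 0.0275, each the highest for its samples. Samples with unlike numbers correlated at -0.0268 to -0.000801. All these values are small, and the main model left the replicate number out. Whether same-numbered samples were prepared as pairs is not settled by them. Of the 10 genes, AGO4, AGO3 and TARBP2 had the fewest counts and the widest intervals, with SE of 0.070, 0.066 and 0.061. The host genes varied, with an SE of 0.053 for MIRLET7BHG (677 to 941 counts) and 0.33 for MIR31HG (9 to 24 counts).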
